A study of Mus musculus with 15 samples.

Results

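The ileum of mice that lacked TAK1 in the intestinal epithelium and carried kinase-dead RIPK1 was compared with the ileum of control mice, to list what still differed where the kinase activity of RIPK1 was absent. The comparison used 10 of the 15 libraries of the study, chosen by their genotype label: 5 libraries labelled DHO and 5 labelled WT. WT mice were Tak1 f/f, with floxed alleles. DHO mice were TAK1 IEC-KO, with TAK1 deleted in intestinal epithelial cells, and Ripk1 D138N/D138N, with 2 copies of an allele whose protein has no kinase activity. The other 5 libraries, labelled HO, came from TAK1 IEC-KO mice without that allele named, and are given beside the results where they help to place a level. According to the protocol in the labels, all mice received tamoxifen by intraperitoneal injection in 3 daily doses of 80 mg/kg, and the libraries hold ileum tissue taken 3 days after induction. The labels name no Cre driver, age, sex, litter or batch, and do not say whether WT mice carried a Cre. No D138N/D138N group with intact TAK1 was analysed here, so an effect of the allele and an effect of the deletion cannot be told apart.

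TAK1, the product of Map3k7, is a kinase that passes signals from TNF receptors and Toll-like receptors to NF-kB and MAP kinases, and it restrains RIPK1. When TAK1 is missing, RIPK1 kinase activity can start apoptosis through FADD and caspase-8, or necroptosis through RIPK3 and MLKL. The lining of the ileum is renewed from crypts and holds absorptive enterocytes, mucus-secreting goblet cells and Paneth cells, with T lymphocytes lodged between the epithelial cells and IgA-secreting plasma cells beneath them.

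Depth was even over the 15 libraries, at 38724618 to 40589889 reads recovered from the deposited values, so counting error differed little between them. The enterocyte gene Vil1 (864 to 1049 FPKM in WT, 854 to 1149 in DHO), the goblet cell mucin Muc2 (111 to 136 and 94.9 to 143) and the ileal bile acid binding protein Fabp6 (6935 to 11847 and 7181 to 9781) were high in all 10 libraries, as the tissue label requires. FPKM is a read count scaled to gene length and library depth. Several libraries stood apart within their group. DHO 3 and DHO 4 carried proximal transcripts. Gata4, which marks duodenum and jejunum, read 19.04 and 18.04 FPKM in them and no more than 0.529 in the other 8, and Hoxb9, which marks the distal gut, read 0.442 and 0.397 against 13.3 to 17.8 in WT. DHO 1 held B cell transcripts, with Ms4a1 at 7.04 FPKM and no more than 0.286 in the other 9. WT 1 and WT 2 were low in smooth muscle transcripts, with the muscle intermediate filament gene Des at 18.1 and 17.4 FPKM against 45.4 or above in the other 8. DHO 3 and DHO 4 were also unusually alike, with a chi-square of their reads of 16.6 per gene against 74.5 or more for the other DHO pairs, and WT 1 with WT 2 (21.5) and WT 3 with WT 4 (29.6) were the closest WT pairs. None agreed within sampling noise, but that cannot show whether the libraries of a pair come from separate mice. Each library was counted as 1 sample. Because nothing in the labels says whether such pairs share a litter or a processing day, the p-values measure only the spread between these libraries. These marker genes were chosen after their values were seen. In whole tissue, fewer cells of a type and less RNA per cell cannot be told apart.

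Of 10874 genes that reached 1 FPKM in 5 or more of the 10 libraries, 185 differed between DHO and WT, which is 1.70% of those tested. The test was limma-trend on log2(FPKM + 1) with a Benjamini-Hochberg adjusted p under 0.05, a gene past that threshold is described as called, and a log2 change is the DHO mean minus the WT mean on that scale. The calls were evenly split, with 93 genes higher in DHO (0.855% of those tested) and 92 lower (0.846%). Most changes were modest: the median size of a called change was 0.66 on the log2 scale, and 42 called genes changed by a doubling or more, 15 upward and 27 downward. Over all genes tested the median was 0.00. All 5 DHO libraries lay on one side of all 5 WT libraries for 180 of the 185 called genes, and for 485 genes overall (4.46% of those tested, 2.52% higher and 1.94% lower).

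**Figure D1:**
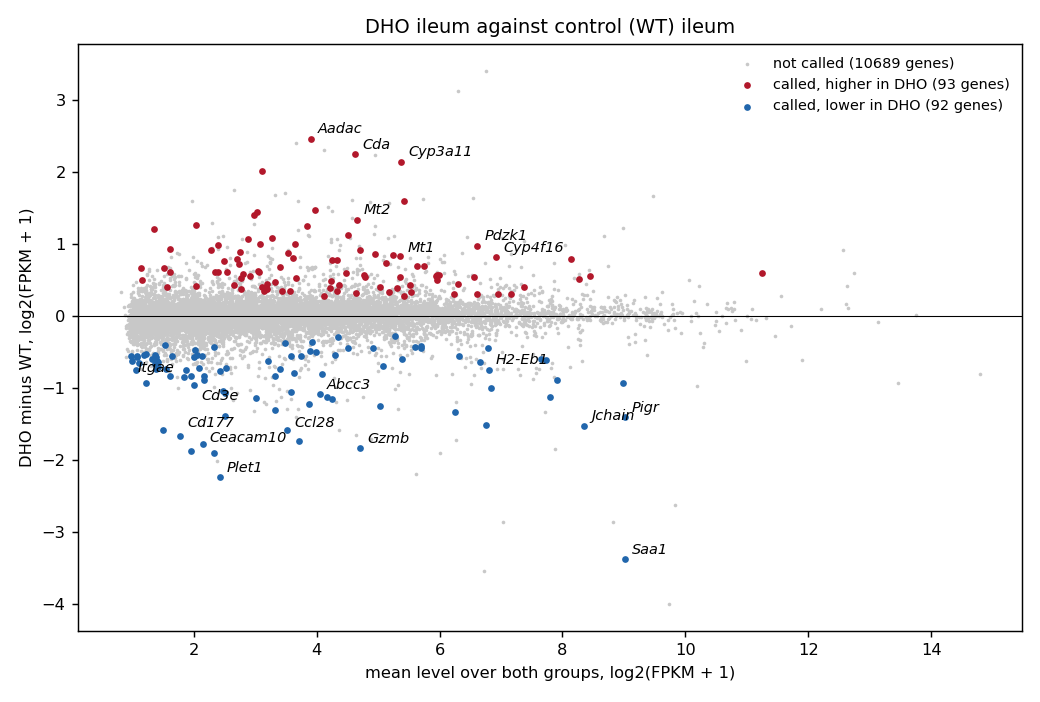
Change between DHO and WT against mean level, both on the log2(FPKM + 1) scale, for each of the 10874 genes tested; grey points were not called, and red and blue points were called higher (93) and lower (92) in DHO. Most genes lie near 0, and the labelled genes include the falls of Pigr, Ccl28, Ceacam10 and Gzmb and the rises of Aadac, Cda, Cyp3a11 and Mt2 described in the text.

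For scale, the DHO libraries differed from the HO libraries in 6120 of the same genes (56.3% of those tested), 4856 higher in DHO (44.7%) and 1264 lower (11.6%), in a fit of all 15 libraries that shares the DHO libraries with the comparison above. Of those calls 20.7% were lower in DHO, a share of 41.4% after median-of-ratios scaling and of 44.1% after quantile normalization. The median change of all genes tested, 0.27, became 0.07 and 0.04. Between DHO and WT these scalings moved the median of all genes by less than 0.1. How many genes were called between DHO and WT depended on which libraries entered. Leaving out 1 library at a time gave 61 calls without WT 1, 71 without WT 2, 79 without WT 3, 117 without WT 5, 106 without DHO 3 and 97 without DHO 4, and 182 to 221 without any of the other 4. In a fit of all 15 libraries, which adds the wider spread of HO, there were 31 calls. With the 3 close pairs of libraries averaged there were 11, in a fit with fewer samples. Without both WT 1 and WT 2 there were 19 calls (0.175% of those tested), and without DHO 3 and DHO 4 there were 186 (1.71%), 113 higher (1.04%) and 73 lower (0.671%), of which 101 were among the 185. A total of 58 genes, 27 higher and 31 lower, were called in each of the 10 fits that left out 1 library, and the account below gives most room to them.

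**Figure D2:**
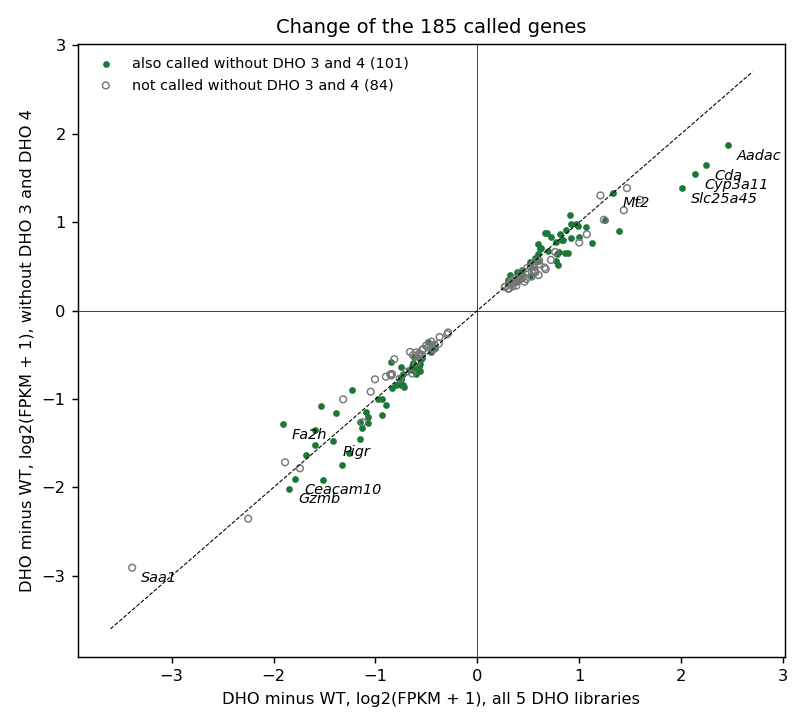
Log2 change of each of the 185 called genes with all 5 DHO libraries (horizontal) and without DHO 3 and DHO 4 (vertical), with a dashed line where both are equal; filled points were called in both fits (101) and open points only in the fit of all libraries (84). Every point keeps its sign, and the largest rises, those of Aadac, Cda, Cyp3a11 and Slc25a45, lie below the dashed line.

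The transcripts of the targeted pathway itself differed little between DHO and WT. Map3k7 (chromosome 4, 31963492 to 32023470) read 9.39, 11.01, 10.4, 11.2 and 9.69 FPKM in WT libraries 1 to 5 and 9.01, 9.79, 8.94, 8.31 and 10.1 in DHO libraries 1 to 5, an order kept below. The groups overlapped and the gene was not called (log2 change -0.15, SE 0.07, adjusted p = 0.426). The value covers the whole gene, so it does not isolate a deleted exon and is a weak check of the genotype label, and the D138N substitution leaves no trace in a level. Ripk1 was at 4.55 ± 0.339 FPKM (mean ± SD, n = 5) in WT and 4.298 ± 0.226 in DHO (log2 change -0.07, SE 0.07, adjusted p = 0.777), though it overlaps the highly expressed Serpinb6a and the strand setting of the counting is not given in the sources used here.

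Of the effectors of necroptosis, the pore-forming protein gene Mlkl read 6.95, 6.84, 8.89, 6.01 and 5.94 FPKM in WT and 6.33, 5.23, 5.65, 6.87 and 7.42 in DHO. These groups overlapped (log2 -0.11, adjusted p = 0.764), whereas HO libraries stood at 13.6 to 20.6, above every DHO library (DHO against HO log2 change -1.35, SE 0.14, adjusted p = 3.22e-06). The RIPK3-activating nucleic acid sensor gene Zbp1 ranged from 22.8 to 47.1 FPKM in WT, 15.5 to 37.4 in DHO and 109 to 169 in HO, and was not called against WT (-0.45, adjusted p = 0.528) but was called lower against HO (-2.48, adjusted p = 2.33e-06). Ripk3 was at 31.4 and 31.1 FPKM in DHO 3 and DHO 4 and at 18.3 to 19.6 in the other DHO libraries, against 20.8 to 22.9 in WT (0.10, adjusted p = 0.87). Casp8 (-0.06, adjusted p = 0.896), Fadd (0.21, adjusted p = 0.282), Tradd (-0.11, adjusted p = 0.715) and the TNF receptor gene Tnfrsf1a (0.17, adjusted p = 0.667) were not called, and Tnf did not pass the filter, at 0.288 to 0.707 FPKM in WT and 0.165 to 0.649 in DHO. Of 26 members tested in a list of 27 RIPK1 and death receptor pathway genes, 1 was called higher, beside 0.855% of all genes tested. Another 1 was called lower, beside 0.846%, and the median change was -0.03.

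The member that fell was Tnfaip3, which encodes the NF-kB feedback inhibitor A20. It read 10.7, 10.3, 9.44, 8.16 and 12.8 FPKM in WT and 6.64, 5.504, 6.55, 6.53 and 5.9 in DHO. Every DHO library lay below every WT library (log2 change -0.63, SE 0.10, adjusted p = 0.0154), and the call was lost without WT 1 (adjusted p = 0.0564). The member that rose was Bax, a mitochondrial apoptosis effector and p53 target, at 38.04 ± 1.96 FPKM in WT and 51.6 ± 3.71 in DHO (log2 change 0.43, SE 0.06, adjusted p = 0.00883), with the groups separate and the call kept in each fit without 1 library. With median-of-ratios scaling neither gene was called (adjusted p = 0.0626 for Tnfaip3 and 0.0623 for Bax). None of 19 tested genes of the TAK1 complex and IKK list was called (median change 0.04).

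Of all genes tested, Pigr had the smallest p between DHO and WT. The gene (chromosome 1, 130826684 to 130852249) encodes the epithelial receptor that transports IgA across the epithelium and read 771, 836, 764, 624 and 754 FPKM in WT and 253, 279.7, 303, 297 and 269 in DHO. The groups were far apart, with no DHO library near the lowest WT library. Pigr fell by 1.41 (SE 0.08, adjusted p = 3.48e-05) and was called in every fit without 1 library. HO libraries were lower still, at 276, 96.04, 175, 97.1 and 126 FPKM, with 1 of them inside the DHO range (DHO against HO log2 change 0.98, SE 0.22, adjusted p = 0.00187).

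Ccl28, an epithelial chemokine that draws IgA-secreting cells, read 16.3, 17.8, 17.4, 12.3 and 16.8 FPKM in WT and 4.95, 5.87, 2.85, 3.88 and 6.29 in DHO. The groups were separate, although WT 4 was lower than the other WT libraries (log2 change -1.60, SE 0.17, adjusted p = 0.00158). Its call was also kept without WT 1 and WT 2 (adjusted p = 0.0405) and without DHO 3 and DHO 4 (0.00259). In HO the level was 0.179 to 1.803 FPKM, below every DHO library.

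Jchain, which encodes the chain that joins IgA into dimers, read 523, 456, 540.1, 449 and 398 FPKM in WT and 172, 202, 91.1, 113 and 312 in DHO. All DHO libraries lay below all WT libraries, with DHO 3 and DHO 4 lowest (log2 change -1.53, SE 0.28, adjusted p = 0.0218). The call was lost without WT 1, WT 2, WT 3 or DHO 4 (adjusted p = 0.0584 to 0.0718), and the change was -1.08 without DHO 3 and DHO 4. HO libraries overlapped both groups, at 163 to 465 FPKM. Mzb1, a plasma cell endoplasmic reticulum gene, fell in the same samples, from 13.1 ± 2.45 to 4.94 ± 2.604 FPKM (change -1.32, SE 0.24, adjusted p = 0.0218), and lost its call without WT 1, WT 2, WT 3, DHO 3 or DHO 4 (adjusted p = 0.053 to 0.0718).

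Of 7 tested genes in a plasma cell and IgA list of 12, 4 were called lower (Pigr, Jchain, Mzb1 and Derl3), beside 0.846% of all genes tested, and the list's median change was -0.84. Xbp1 (-0.12, adjusted p = 0.71), Sdc1 (-0.15, adjusted p = 0.622) and Txndc5 (-0.26, adjusted p = 0.333), which are also expressed outside plasma cells, were not called. Igha, Igkc and the other immunoglobulin genes of the list were not among the genes tested. Leaving out 1 library gave 1 call without WT 1, WT 2, WT 3 or DHO 4, 2 without DHO 3 and 4 without any of the other 5, and Pigr was called in each. In the same libraries, 3 of 17 B cell and follicle genes were tested and none was called. The summed level of that list was 9.37 to 11.4 FPKM in WT and 4.09 to 85.7 in DHO, the highest being DHO 1. Without DHO 1 the count of plasma cell and IgA genes called was again 4. In that fit 1 of the 3 B cell and follicle genes, Cd79a, was called lower, beside 1.7% of all genes called in either direction. Cd79a was at 3.74 ± 0.0996 FPKM in WT (mean ± SD, n = 5) and 1.34 to 3.04 in the DHO libraries other than DHO 1.

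**Figure D3:**
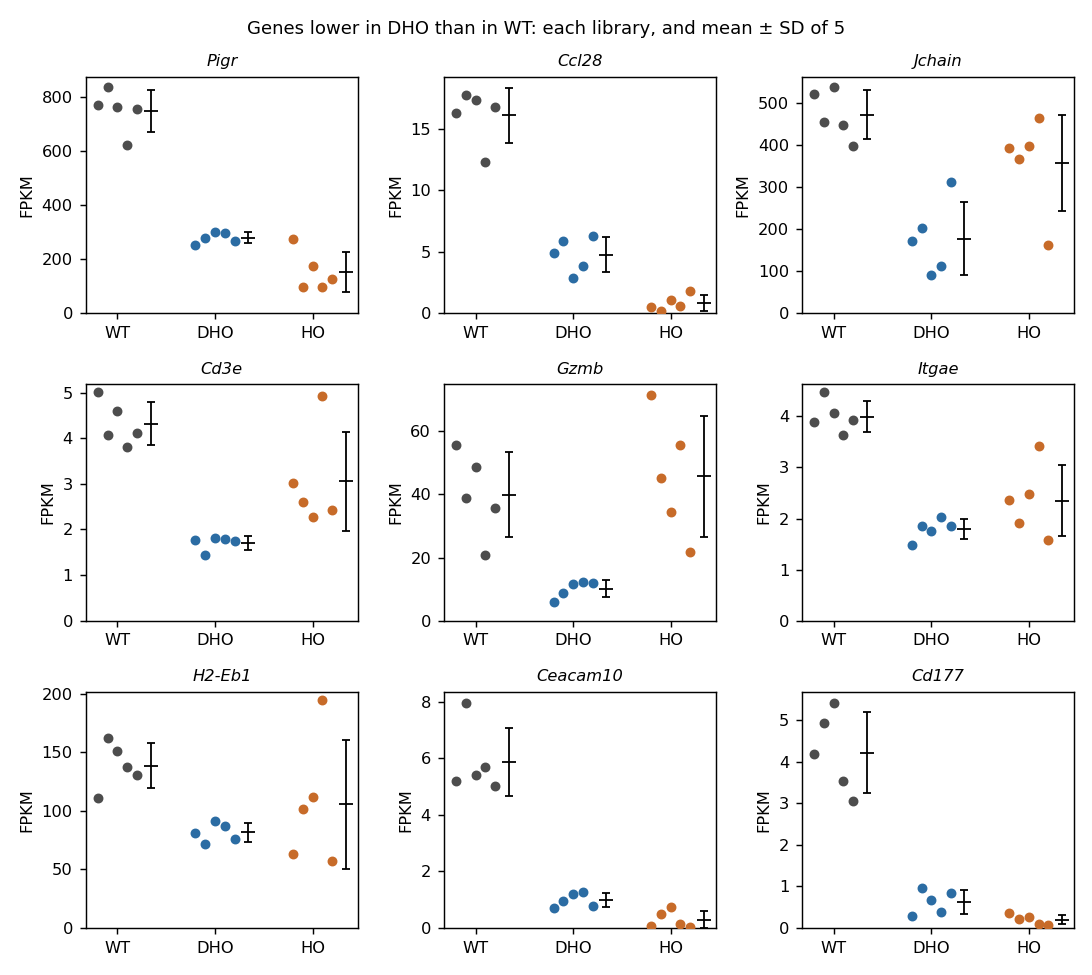
FPKM of 9 genes lower in DHO than in WT, with a panel for each gene; points are libraries 1 to 5 of WT, DHO and HO from left to right, and the bar beside them is the mean ± SD of the 5. WT and DHO points do not overlap in any panel, while HO points lie below DHO for Ccl28 and spread across the WT and DHO levels for H2-Eb1 and Jchain.

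Genes of T and NK lymphocytes had more falls than any other of the 55 lists. Of 15 tested genes in a list of 24 T and NK cell genes, 12 were called lower in DHO and none higher, beside 0.846% of all genes called lower. The list's median change was -0.97, and 14 of the 15 had all DHO libraries below all WT libraries, beside 1.94% of all genes. Cd3e, a signalling chain of the T cell receptor complex, read 5.001, 4.07, 4.59, 3.804 and 4.12 FPKM in WT and 1.76, 1.44, 1.82, 1.79 and 1.74 in DHO. The groups were well apart, with DHO 2 the lowest library (log2 change -0.97, SE 0.08, adjusted p = 0.000608). Its partner chains Cd3g (log2 change -1.07, SE 0.12, adjusted p = 0.00198) and Cd3d (log2 change -0.76, SE 0.13, adjusted p = 0.0198), which lie beside it on chromosome 9, fell as well.

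Itgae encodes CD103, the integrin with which T lymphocytes hold to epithelial cells, and read 3.88, 4.48, 4.06, 3.64 and 3.93 FPKM in WT and 1.48, 1.86, 1.76, 2.03 and 1.86 in DHO. The ranges did not overlap (log2 change -0.84, SE 0.08, adjusted p = 0.000943), though Itgae overlaps Haspin, so reads of the genes cannot be told apart. Cd8a, the co-receptor chain of cytotoxic and intraepithelial T cells, fell from 6.75 ± 1.52 to 2.67 ± 0.7102 FPKM (change -1.07, SE 0.17, adjusted p = 0.00946). Itgb7, the partner chain of CD103, fell by 0.75 (adjusted p = 0.00403), and Il2rb, a receptor chain for IL-2 and IL-15, by 0.60 (adjusted p = 0.0075). Ccr9, the receptor that directs lymphocytes to the small intestine, fell by 0.57 (adjusted p = 0.0175). Cd8a, Itgb7, Il2rb, Ccr9, Cd3d and Nkg7 were chosen after their values were seen.

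Among the T and NK cell genes named here, the granzyme genes Gzmb and Gzma fell furthest. Gzmb, the granzyme B gene, read 55.7, 38.9, 48.7, 20.7 and 35.6 FPKM in WT and 6.03, 8.73, 11.6, 12.3 and 12.1 in DHO. The highest DHO library was below the lowest WT library, WT 4 (log2 change -1.84, SE 0.26, adjusted p = 0.00735). Gzma, the granzyme A gene, read 196, 166, 173, 103 and 146 and 37.9, 39.6, 74.3, 88.1 and 42.9 FPKM in the same order. DHO 3 and DHO 4 were the highest DHO libraries but remained below WT 4 (log2 change -1.51, SE 0.26, adjusted p = 0.0182). Nkg7, a cytotoxic granule membrane gene, fell by 1.15 (adjusted p = 0.0057) and the chemokine gene Ccl5 by 1.33 (adjusted p = 0.028).

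The falls also set DHO below HO for part of these genes. Gzmb stood at 71.5, 45.1, 34.4, 55.7 and 21.7 FPKM in HO, above every DHO library (DHO against HO log2 change -2.00, SE 0.31, adjusted p = 9.01e-05), and Cd3e at 2.27 to 4.93, likewise above (DHO against HO log2 change -0.55, SE 0.14, adjusted p = 0.00373). Itgae ranged from 1.58 to 3.41 FPKM in HO, overlapping DHO (DHO against HO -0.24, adjusted p = 0.114).

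Cd3e, Cd3g, Itgae, Cd8a, Gzmb, Nkg7, Itgb7 and Il2rb were called in each fit without 1 library. Gzma lost its call without WT 1, WT 2 or WT 3 (adjusted p = 0.0546 to 0.0602), Ccl5 without WT 1, WT 2, WT 3, WT 5, DHO 1, DHO 2 or DHO 5 (adjusted p = 0.0509 to 0.0872), Ccr9 without WT 1, WT 2 or WT 3 (adjusted p = 0.0545 to 0.0602) and Cd3d without WT 1, WT 2, WT 3 or DHO 3 (adjusted p = 0.0505 to 0.0661). The list's count was 7 without WT 1, 7 without WT 2, 7 without WT 3 and 9 to 12 without any of the other libraries. Without WT 1 and WT 2 together it was 3 (Cd3e, Cd3g and Itgae), and Gzmb (adjusted p = 0.0771) and Cd8a (0.12) were not called. It was 9 with median-of-ratios scaling, 11 without DHO 3 and DHO 4 and 12 without DHO 1, the library with B cell transcripts. The summed level of the list was 269 to 468 FPKM in WT, 114 to 214 in DHO and 193 to 436 in HO. Smooth muscle genes, which measure how much of the muscle wall a piece holds, had a median change of 0.60 with none of 16 called, and with their level as a covariate 13 T and NK cell genes were called.

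MHC class II genes, whose proteins present peptides to CD4+ T cells and which intestinal epithelium and antigen-presenting cells both express, were called lower in DHO for 5 of 8 members tested of a list of 11, beside 0.846% of all genes tested. The median change of the list was -0.76. The promoters of these genes share an X box and a Y box, bound by the RFX and NF-Y factors, on which the co-activator CIITA assembles. The promoter windows of H2-Eb1 (chr17:34305617-34305916, plus strand) and H2-DMb1 (chr17:34152941-34153240, plus strand) are shown because both genes fell and both windows hold an X box core and a Y box core. They run from 250 bases before to 50 after the start of each gene, on GRCm38.p6 and credited to RefSeq, with the matches in capitals:
H2-Eb1: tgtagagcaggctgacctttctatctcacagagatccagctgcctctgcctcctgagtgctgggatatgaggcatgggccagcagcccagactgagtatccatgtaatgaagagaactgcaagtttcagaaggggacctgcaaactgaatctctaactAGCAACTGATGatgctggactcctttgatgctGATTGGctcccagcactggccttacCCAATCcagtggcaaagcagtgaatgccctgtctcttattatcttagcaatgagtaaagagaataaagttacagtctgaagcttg
H2-DMb1: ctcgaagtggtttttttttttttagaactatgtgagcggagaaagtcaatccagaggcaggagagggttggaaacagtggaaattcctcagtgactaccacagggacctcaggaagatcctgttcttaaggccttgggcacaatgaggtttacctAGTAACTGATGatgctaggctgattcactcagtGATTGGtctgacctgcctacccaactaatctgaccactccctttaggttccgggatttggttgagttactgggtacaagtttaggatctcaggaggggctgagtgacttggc
The motifs searched on both strands were AGNAAC directly followed by NGATG for the X box and GATTGG for the Y box, of which the reverse complement is printed where the match lies on the other strand. The X box core occurs in 0.298% of 32851 mouse promoter windows, the Y box core in 16.1% and both in 18 windows (0.0548%). Of the other members of the list, H2-Aa, H2-DMb2, H2-Oa and H2-Ob have the Y box core alone in their windows. H2-DMa, which was also called lower, has neither core in the first of its 2 windows and the Y box core alone in the second. H2-Ab1, Cd74 and Ciita had no window. A match is a run of letters, not a measured site.

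H2-Eb1, a beta chain that binds peptide, read 111, 162, 151, 138 and 131 FPKM in WT and 81.2, 71.8, 91.5, 87.4 and 76.4 in DHO. Every DHO library was below every WT library (log2 change -0.75, SE 0.10, adjusted p = 0.00658). H2-DMb1, a chain of the complex that loads peptide, read 38.8, 59.5, 52.7, 34.7 and 37.6 and 12.5, 17.1, 25.8, 25.4 and 11.96 FPKM in the same order. The groups were again separate, with DHO 3 and DHO 4 the highest of DHO (log2 change -1.26, SE 0.24, adjusted p = 0.0255). H2-DMa, its partner chain, fell by 0.76 (SE 0.11, adjusted p = 0.00883), though it overlaps Brd2.

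Cd74, the invariant chain that guides class II molecules, read 582, 837, 705, 604 and 559.9 FPKM in WT and 295, 298, 476, 407 and 269 in DHO. No DHO library reached the lowest WT library (log2 change -0.93, SE 0.17, adjusted p = 0.0208). Ciita, the co-activator, was low in all libraries, at 1.75 to 2.43 FPKM in WT and 0.613 to 1.601 in DHO (log2 change -0.60, SE 0.13, adjusted p = 0.0401), and overlaps Dexi. H2-Aa (-0.85, adjusted p = 0.0558) and H2-Ab1 (-0.72, adjusted p = 0.062), the main alpha and beta chains, had separate groups but were not called. H2-Aa and H2-Ab1 were chosen after their values were seen.

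H2-Eb1 and H2-DMa were called in each fit without 1 library. H2-DMb1 lost its call without WT 1, WT 2 or WT 3 (adjusted p = 0.066 to 0.0765), Cd74 without WT 1, WT 2 or WT 3 (adjusted p = 0.0564 to 0.0651) and Ciita without WT 1, WT 2, WT 3, WT 4, WT 5, DHO 2, DHO 3, DHO 4 or DHO 5 (adjusted p = 0.0541 to 0.112). The list's count was 2 without WT 1, WT 2 or WT 3, 1 without WT 1 and WT 2 together, 3 with median-of-ratios scaling and 6 without DHO 3 and DHO 4. In a fit that shares the spread of the HO libraries none of the class II genes was called (H2-Eb1 adjusted p = 0.374). HO libraries spanned both groups, with H2-Eb1 at 57.2 to 195 FPKM and Cd74 at 232 to 772. Of 19 tested MHC class I and immunoproteasome genes none was called, and their median change was -0.04.

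Among single genes, Ceacam10 and Cd177 fell together. They are neighbours on chromosome 7, 16833 bases apart. Ceacam10 (chromosome 7, 24777167 to 24784656), a secreted member of the carcinoembryonic antigen family, read 5.21, 7.96, 5.42, 5.68 and 5.02 FPKM in WT and 0.701, 0.957, 1.21, 1.26 and 0.777 in DHO. WT 2 was the highest library, and no DHO library came near the WT range (log2 change -1.78, SE 0.13, adjusted p = 0.000131). Cd177 (chromosome 7, 24743983 to 24760334), a surface glycoprotein gene best known from neutrophils, read 4.19, 4.93, 5.42, 3.53 and 3.05 and 0.287, 0.956, 0.6699, 0.391 and 0.839 FPKM. Its groups were separate too (log2 change -1.68, SE 0.16, adjusted p = 0.000786). Both were lower still in HO, at 0.0233 to 0.748 and 0.0737 to 0.356 FPKM. Of 17 neutrophil and eosinophil genes, 2 passed the filter and none was called.

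Other falls that held without each library in turn included those of U90926, Abcc3 and Tsc22d3. With the 3 close pairs of libraries averaged, Abcc3 was called, while U90926 and Tsc22d3 were not (adjusted p = 0.064 for each). U90926 went from 3.24 ± 1.05 to 0.385 ± 0.231 FPKM (change -1.60, SE 0.18, adjusted p = 0.00185). Abcc3, a basolateral exporter of bile acids and conjugates chosen after its values were seen, read 23.8, 25.8, 18.9, 15.4 and 24.3 FPKM in WT and 8.51, 9.81, 10.4, 9.796 and 8.87 in DHO. The groups were separate (log2 change -1.09, SE 0.13, adjusted p = 0.00277). Tsc22d3, which encodes the glucocorticoid-induced leucine zipper, read 11.6, 15.4, 16.6, 14.2 and 16.2 and 8.09, 6.59, 8.22, 8.57 and 8.82 FPKM. All DHO libraries lay below all WT libraries (log2 change -0.80, SE 0.10, adjusted p = 0.00471). It was 1 of 2 called members among 13 tested glucocorticoid target genes, beside 1.70% of all genes tested, and the other, Mt2, rose. Of the 13, 11 lay below 0, and the median change was -0.19.

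Epithelial defence genes were lower in several cases but with wide spread between libraries. Of 16 tested genes in an antimicrobial and acute phase list of 22, 4 were called lower (Pigr, Retnlb, Saa1 and Saa3), beside 0.846% of all genes tested, and the median change was -0.78. Saa1, a serum amyloid A gene of the acute phase, read 1451, 1339, 453, 289 and 1095 FPKM in WT and 30.6, 319.8, 47.3, 40.97 and 108 in DHO. WT 3 and WT 4 were the lowest WT libraries, and DHO 2 overlapped WT 4 (log2 change -3.39, SE 0.67, adjusted p = 0.0331). Saa3, its neighbour and paralog, read 23.1, 27.2, 21.6, 8.22 and 15.2 and 1.63, 7.83, 6.51, 3.57 and 5.93 FPKM. Its highest DHO library, DHO 2, was just below WT 4 (log2 change -1.74, SE 0.37, adjusted p = 0.0456), and HO libraries stood at 12.9 to 171. How the counting divided reads between such near copies is not given in the sources used here.

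Retnlb, a goblet cell protein with activity against bacteria, read 5.63, 4.23, 4.601, 9.26 and 1.92 FPKM in WT and 0, 1.17, 0.179, 0.394 and 1.36 in DHO. The groups did not overlap, and WT 5 was the lowest WT library (log2 change -1.89, SE 0.33, adjusted p = 0.0208). The bactericidal lectin genes Reg3b (26641 to 44778 FPKM in WT and 13383 to 28779.8 in DHO, -0.81, adjusted p = 0.0832) and Reg3g (9655 to 19849 and 3497 to 10082, -0.94, adjusted p = 0.174), chosen after their values were seen, were not called. Pglyrp1, a peptidoglycan-binding protein gene, fell from 257 ± 28.7 to 167 ± 19.1 FPKM (change -0.62, SE 0.10, adjusted p = 0.00997) and held without each library in turn. It was not called without WT 1 and WT 2 together (adjusted p = 0.129) or with the 3 close pairs averaged (0.1155). Nor was Pglyrp1 called in a fit that shares the spread of the HO libraries (adjusted p = 0.841).

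Among called genes whose groups did not overlap, Plet1 fell furthest. It is a surface protein gene of epithelial progenitors and read 13.8, 13.9, 5.54, 1.22 and 6.15 FPKM in WT and 0.743, 0.241, 0.929, 0.581 and 0.43 in DHO. WT 1 and WT 2 were the highest and WT 4 the lowest of WT, still above every DHO library (log2 change -2.25, SE 0.45, adjusted p = 0.0336). Fa2h, a fatty acid hydroxylase gene, read 7.15, 5.41, 5.62, 5.08 and 10.4 and 1.49, 3.02, 0.0399, 0.0501 and 1.93 FPKM, lowest in DHO 3 and DHO 4 (log2 change -1.91, SE 0.38, adjusted p = 0.0321), and its change was -1.28 without these 2 libraries. These calls were each lost in several of the fits without 1 library. Plet1 lost its call without WT 1, WT 2, WT 3, WT 5, DHO 1, DHO 2, DHO 3, DHO 4 or DHO 5 (adjusted p = 0.0536 to 0.0874), Fa2h without WT 1, WT 2, WT 3, WT 5, DHO 3 or DHO 4 (adjusted p = 0.0664 to 0.093), Retnlb without WT 1, WT 2, WT 3, DHO 3 or DHO 4 (adjusted p = 0.055 to 0.066), Saa1 without WT 1, WT 2, WT 3, WT 5, DHO 1, DHO 3, DHO 4 or DHO 5 (adjusted p = 0.0534 to 0.108) and Saa3 without WT 1, WT 2, WT 3, WT 5, DHO 1, DHO 3, DHO 4 or DHO 5 (adjusted p = 0.0526 to 0.134).

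The 4 largest rises, of Aadac, Cda, Cyp3a11 and Slc25a45, were highest in DHO 3 and DHO 4, the libraries with proximal transcripts. Cda (chromosome 4, 138338528 to 138368311), which encodes cytidine deaminase, read 5.601, 5.59, 6.81, 8.34 and 7.62 FPKM in WT and 22.9, 22.2, 65.7, 67.9 and 24.3 in DHO. Even the lowest DHO library was more than 2 times the highest WT library (log2 change 2.24, SE 0.33, adjusted p = 0.00883). Without DHO 3 and DHO 4 its change was 1.65 (adjusted p = 0.000885), and it was called in each fit without 1 library. In HO it stood at 14.2 to 73.5 FPKM, highest in HO 1, which also held Gata4, and did not differ from DHO by the test (0.38, adjusted p = 0.437).

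Aadac, an esterase gene of liver and intestine, read 2.81, 1.68, 2.93, 4.96 and 3.14 FPKM in WT and 14.2, 7.21, 33.7, 45.3 and 23.5 in DHO. The groups were separate, with DHO 2 the lowest of DHO (log2 change 2.46, SE 0.42, adjusted p = 0.019). Cyp3a11, a main drug-metabolising cytochrome P450, read 7.42, 13.2, 12.6, 21.5 and 11.9 and 43.01, 32.6, 110.4, 112 and 41.1 FPKM. DHO 3 and DHO 4 were more than 2 times the other DHO libraries, which were themselves above all of WT (log2 change 2.14, SE 0.38, adjusted p = 0.0216). Slc25a45, a mitochondrial carrier gene, read 1.87, 1.68, 1.69, 2.51 and 2.51 and 7.35, 4.997, 21.9, 23.1 and 8.79 FPKM, in the same pattern (log2 change 2.01, SE 0.36, adjusted p = 0.0208).

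Without DHO 3 and DHO 4 the changes were 1.87 for Aadac (adjusted p = 0.0413), 1.54 for Cyp3a11 (0.0317) and 1.38 for Slc25a45 (0.00749). Aadac lost its call without WT 1, WT 2 or WT 3 (adjusted p = 0.0569 to 0.0602), Cyp3a11 without WT 1, WT 2 or WT 3 (adjusted p = 0.0622 to 0.066) and Slc25a45 without WT 1, WT 2 or WT 3 (adjusted p = 0.0622 to 0.0669). Without WT 1 and WT 2, Cda was not called either (adjusted p = 0.12). The summed level of proximal position genes was 539.9 to 701 FPKM in WT, 657 to 864 in DHO 1, DHO 2 and DHO 5, and 5015 and 4605 in DHO 3 and DHO 4. Of 11 tested genes of that list 1, Cyp3a25, was called higher, beside 0.855% of all genes tested, and the median change was 0.94. Without DHO 3 and DHO 4, 3 of the 11 were called higher, beside 1.04%, so leaving out these libraries did not remove the list's calls. Distal position genes summed to 8851 to 13343 FPKM in WT and 9057 to 11674 in DHO, a sum that is mostly Fabp6, at 6935 to 11847 FPKM in WT and 7181 to 9781 in DHO. Hoxb9 of the same list was at 0.442 and 0.397 FPKM in DHO 3 and DHO 4, against 13.3 to 17.8 in WT.

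Other rises of a doubling or more included those of Cyp2d26, Apol9b, Rdh7, Slc5a11, 1700016C15Rik and Abcc2. Cyp2d26, a cytochrome P450, rose by 1.59 (adjusted p = 0.0175) and by 1.25 without DHO 3 and DHO 4, where it was not called (adjusted p = 0.0524). Apol9b, an interferon-inducible apolipoprotein L gene, rose by 1.47 (adjusted p = 0.0208), the retinol dehydrogenase gene Rdh7 by 1.44 (0.0467), the inositol transporter gene Slc5a11 by 1.39 (0.0456) and the apical conjugate exporter gene Abcc2 by 1.24 (0.0243). Only 1700016C15Rik, at 1.41 ± 0.428 FPKM in WT and 4.82 ± 1.397 in DHO, was called in each fit without 1 library among these 6 (log2 change 1.26, SE 0.18, adjusted p = 0.0075). Cyp2d26 lost its call without WT 1, WT 2 or WT 3 (adjusted p = 0.0511 to 0.0564), Apol9b without WT 2, DHO 3 or DHO 4 (adjusted p = 0.055 to 0.0585), Rdh7 without WT 1, WT 2, WT 3, WT 5, DHO 1, DHO 3 or DHO 4 (adjusted p = 0.0701 to 0.135), Slc5a11 without WT 1, WT 2, WT 3, WT 4, WT 5, DHO 1, DHO 3 or DHO 4 (adjusted p = 0.0677 to 0.133) and Abcc2 without WT 1, WT 2, WT 5, DHO 3 or DHO 4 (adjusted p = 0.0612 to 0.0673).

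Of 17 tested genes in a cytochrome P450 list of 22, 4 were called higher (Cyp2d26, Cyp3a11, Cyp3a25 and Cyp27a1), beside 0.855% of all genes, and none lower. The median change was 0.61, and 7 of the 17 had all DHO libraries above all WT libraries, beside 2.52% of all genes. Cyp3a25 was highest in the DHO libraries without proximal transcripts, at 83.6, 66.8, 49.96, 54.7 and 71.6 FPKM against 35.6, 46.9, 38.7, 40.9 and 36.5 in WT (log2 change 0.69, SE 0.13, adjusted p = 0.028), and its change was 0.88 without DHO 3 and DHO 4. Cyp27a1, a sterol hydroxylase, went from 5.601 ± 0.766 to 9.04 ± 1.05 FPKM (change 0.61, SE 0.10, adjusted p = 0.0163). The list's count was again 4 without DHO 3 and DHO 4, and 1 without WT 1, 2 without WT 2, 0 without WT 3 and 0 without WT 1 and WT 2 together. Cyp3a25 lost its call without WT 1, WT 3, WT 5, DHO 2 or DHO 5 (adjusted p = 0.0512 to 0.0911) and Cyp27a1 without WT 3 (adjusted p = 0.0505). Close copies in the Cyp3a and Cyp2d families can share reads.

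Alpi and Treh were the called members of the enterocyte list, and 4 other genes, Pdzk1, Cyp4f16, Mme and Slc47a1, belong to none of the lists. Pdzk1, the scaffold that holds transporters at the brush border, read 58.8, 66.6, 58.1, 66.6 and 73.4 FPKM in WT and 154, 101, 127, 126 and 135 in DHO. The ranges were far apart (log2 change 0.97, SE 0.11, adjusted p = 0.00185), and the gene was also above HO, at 52.3 to 75.9 FPKM (DHO against HO log2 change 0.98, SE 0.12, adjusted p = 1.69e-05). Pdzk1 overlaps Gpr89. Cyp4f16, a cytochrome P450 of another family, read 85.9, 81.1, 71.99, 94.5 and 101 and 191, 137, 149, 141 and 149.6 FPKM. All DHO libraries exceeded all WT libraries, with DHO 1 highest (log2 change 0.81, SE 0.11, adjusted p = 0.0057).

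Alpi, the intestinal alkaline phosphatase gene, read 187, 185, 193, 209.8 and 250.3 FPKM in WT and 331, 348, 418, 401 and 280.0 in DHO. The lowest DHO library was above the highest of WT (log2 change 0.78, SE 0.12, adjusted p = 0.00912). Treh, the brush border trehalase gene, rose from 36.7 ± 4.04 to 60.03 ± 8.15 FPKM (change 0.69, SE 0.11, adjusted p = 0.00912) and Mme, the peptidase neprilysin gene, from 16.99 ± 2.197 to 33.1 ± 5.68 (log2 change 0.91, SE 0.13, adjusted p = 0.00737). Slc47a1, an exporter of organic cations, rose by 0.91 (SE 0.14, adjusted p = 0.0106) and by 1.08 without DHO 3 and DHO 4.

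Pdzk1, Cyp4f16, Alpi, Treh, Mme and Slc47a1 kept their calls in each fit without 1 library and without DHO 3 and DHO 4. Without WT 1 and WT 2, Pdzk1 was called (adjusted p = 0.0405) while Cyp4f16 (0.0804), Alpi (0.129), Treh (0.0771), Mme (0.0773) and Slc47a1 (0.153) were not. Pdzk1, Cyp4f16 and Mme were chosen after their values were seen. Of 26 tested genes of the enterocyte list, Alpi and Treh were called higher, beside 0.855% of all genes tested. None was called lower and the median change was 0.18.

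**Figure D4:**
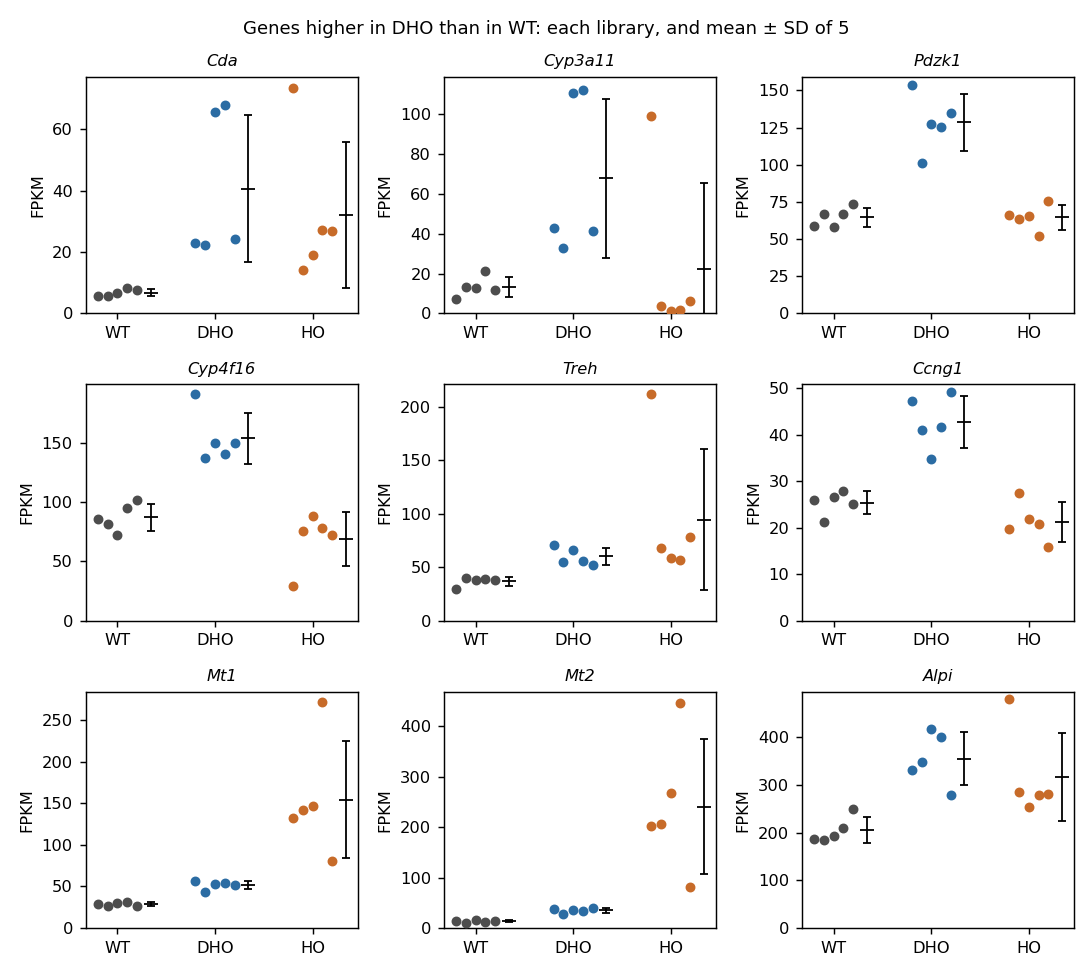
FPKM of 9 genes higher in DHO than in WT, with a panel for each gene; points are libraries 1 to 5 of WT, DHO and HO from left to right, and the bar beside them is the mean ± SD of the 5. DHO 3 and DHO 4, the middle points of DHO, are far above the other DHO libraries for Cda and Cyp3a11, while for Mt1 and Mt2 the 5 DHO libraries lie close together between WT and HO.

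The metallothionein genes Mt1 and Mt2 rose together. They lie 5316 bases apart on chromosome 8 and encode small proteins that bind zinc and copper, and their promoters carry metal response elements bound by the factor MTF1. The zinc exporter gene Slc30a1 is a target of the same factor. The windows of Mt1 (chr8:94178839-94179138, plus strand), Mt2 (chr8:94172368-94172667, plus strand) and Slc30a1 (chr1:191906531-191906830, plus strand) are shown because the 3 genes carry the element and did not move alike. They have the same length, build and source as above, and the Mt2 window has the same span. The annotated starts of Mt1 (94178883) and Slc30a1 (191906697) lie nearer the first base of their windows. The element's core is in capitals:
Mt1: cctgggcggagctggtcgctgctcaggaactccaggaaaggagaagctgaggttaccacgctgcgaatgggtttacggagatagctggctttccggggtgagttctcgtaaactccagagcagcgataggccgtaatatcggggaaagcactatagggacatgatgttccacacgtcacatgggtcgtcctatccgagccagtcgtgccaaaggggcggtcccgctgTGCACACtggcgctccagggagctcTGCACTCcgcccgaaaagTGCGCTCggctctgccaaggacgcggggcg
Mt2: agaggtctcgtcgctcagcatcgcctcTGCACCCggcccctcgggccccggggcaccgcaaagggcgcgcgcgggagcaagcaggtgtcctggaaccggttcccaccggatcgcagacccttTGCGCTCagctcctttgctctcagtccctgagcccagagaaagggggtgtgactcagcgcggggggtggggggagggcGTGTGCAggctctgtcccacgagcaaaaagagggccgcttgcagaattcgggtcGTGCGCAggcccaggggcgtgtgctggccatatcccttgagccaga
Slc30a1: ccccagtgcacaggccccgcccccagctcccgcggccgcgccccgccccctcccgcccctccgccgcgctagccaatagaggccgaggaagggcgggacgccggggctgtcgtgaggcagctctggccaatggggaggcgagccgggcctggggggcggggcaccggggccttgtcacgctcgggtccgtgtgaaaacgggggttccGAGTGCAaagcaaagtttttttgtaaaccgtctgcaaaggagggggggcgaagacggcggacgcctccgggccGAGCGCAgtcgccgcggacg
The cores searched were TGCACNC and TGCGCNC on both strands, and a match on the other strand is printed as its reverse complement. Mt1 held 3 matches, Mt2 4 and Slc30a1 2, and each of the 3 windows held both cores. Either core occurs in 25.7% of the 32851 windows and both in 2.27%.

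Mt2 read 13.04, 10.6, 16.2, 12.5 and 13.9 FPKM in WT and 38.1, 27.5, 36.1, 33.3 and 39.5 in DHO. The 5 DHO libraries lay close together and above all of WT (log2 change 1.33, SE 0.12, adjusted p = 0.000608). Mt1 read 28.6, 26.05, 30.4, 31.5 and 26.7 and 57.1, 43.3, 52.6, 53.7 and 51.8 FPKM. Again no DHO library reached down to WT (log2 change 0.83, SE 0.08, adjusted p = 0.00118). HO libraries were far above both groups, at 80.5 to 447 FPKM for Mt2 (DHO against HO -2.56, adjusted p = 1.49e-05) and 80.1 to 272 for Mt1 (DHO against HO -1.46, adjusted p = 7.83e-05).

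Slc30a1 went the other way, at 48.5, 47.04, 33.5, 32.4 and 42.3 FPKM in WT and 28.9, 22.8, 24.3, 24.3 and 22.3 in DHO. Its groups were separate (log2 change -0.70, SE 0.12, adjusted p = 0.0197). Both metallothionein calls were kept in each fit without 1 library, without DHO 3 and DHO 4 and without WT 1 and WT 2 (adjusted p = 0.0175 for Mt2 and 0.0303 for Mt1), but not in a fit that shares the spread of the HO libraries (adjusted p = 0.103 and 0.178). Slc30a1 lost its call without WT 1, WT 2 or WT 5 (adjusted p = 0.0508 to 0.0573), without DHO 3 and DHO 4 (adjusted p = 0.0597), without WT 1 and WT 2 (0.166), in the fit with HO (0.328) and with median-of-ratios scaling (0.081). Of 14 tested genes in a zinc, metallothionein and iron list of 15, these 3 were the calls, beside 1.70% of all genes tested.

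Of 15 tested p53 target genes, Bax and Ccng1 were called higher, beside 0.855% of all genes tested, and none lower (median change 0.12). Ccng1, the cyclin G1 gene, read 26.03, 21.2, 26.6, 27.9 and 25.2 FPKM in WT and 47.2, 41.05, 34.8, 41.7 and 49.2 in DHO. The lowest DHO library, DHO 3, stood above the highest of WT (log2 change 0.73, SE 0.10, adjusted p = 0.00658). The classical p53 targets Cdkn1a (-0.03, adjusted p = 0.908) and Mdm2 (0.13, adjusted p = 0.665), chosen after their values were seen, were not called. Ccng1 and Bax kept their calls in each fit without 1 library but not without WT 1 and WT 2 (adjusted p = 0.0771 and 0.0957). Both subunit genes of the enzyme that starts glutathione synthesis, Gclm (log2 change 0.39, SE 0.07, adjusted p = 0.0175) and Gclc (log2 change 0.48, SE 0.11, adjusted p = 0.0498), were the 2 called among 15 tested NRF2 antioxidant genes, both higher, beside the same 0.855%. Gclm lost its call without WT 1 or WT 2 (adjusted p = 0.0562 to 0.0564), and Gclc without WT 1, WT 2, WT 3, WT 5, DHO 1, DHO 3, DHO 4 or DHO 5 (adjusted p = 0.0509 to 0.147).

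**Figure D5:**
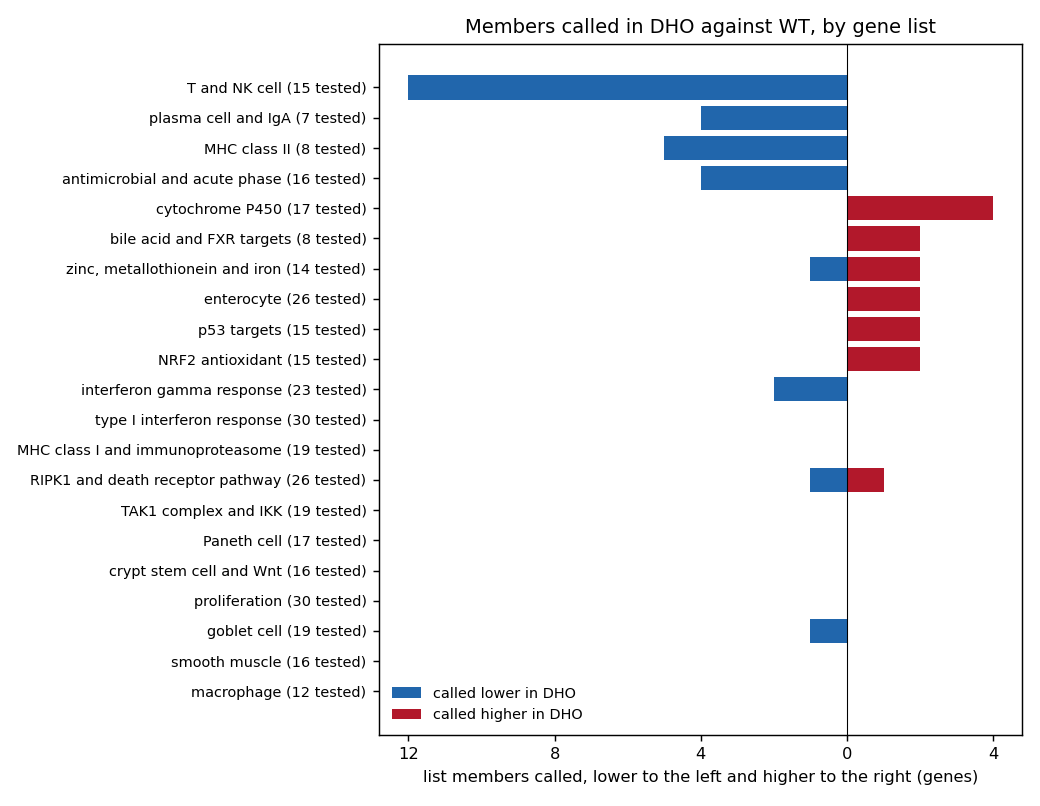
Number of members called lower (blue, to the left) and higher (red, to the right) in DHO against WT for 21 of the gene lists, with the number of members tested in brackets. The T and NK cell list has the longest bar, at 12 of 15, and the type I interferon, proliferation, stem cell and Paneth cell lists have none.

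Programmes that separated DHO from HO were mostly not called between DHO and WT. Of 30 type I interferon response genes tested, none was called against WT, with a median change of 0.32 and 4 members below 0. Against HO, 29 of them were lower in DHO (30 with median-of-ratios scaling), beside 11.6% of all genes tested. Of 23 interferon gamma response genes, 2 were called lower against WT, Nlrc5 (-0.64, adjusted p = 0.0331) and Ciita, beside 0.846% of all genes, and 22 were lower than in HO, beside 11.6% (22 with that scaling). Against WT the median change of this list was -0.41, and 22 of the 23 members lay below 0. Nlrc5, a co-activator of MHC class I genes, lost its call without WT 1, WT 2, WT 3, WT 5, DHO 1, DHO 2, DHO 4 or DHO 5 (adjusted p = 0.0512 to 0.101). None of 30 proliferation genes was called against WT (median change -0.10), while 30 were higher in DHO than in HO (29 with that scaling), beside 44.7% of all genes tested. A p that misses the threshold does not show that levels were alike, and the comparisons with WT and with HO share the DHO libraries.

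None of 16 crypt stem cell and Wnt genes (median change -0.03), 17 regenerative fetal-like genes (0.03), 16 tight junction genes (0.00) or 12 macrophage genes (-0.39) was called. Paneth cell genes had a median change of -0.73 with all 17 below 0 and none called, and their levels varied widely within each group. Lyz1, a Paneth cell lysozyme gene chosen after its values were seen, read 1605, 2392, 3863, 4075 and 837 FPKM in WT and 695, 1253, 1566, 2002 and 2043 in DHO. Its groups overlapped, with WT 5 below 4 of the 5 DHO libraries (-0.64, adjusted p = 0.63). Gsdmc4, a gasdermin gene chosen in the same way, was at 36.2 to 42.3 FPKM in WT, 23.6 to 44.8 in DHO and 0.0769 to 2.904 in HO, and was not called against WT (-0.19, adjusted p = 0.656).

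By position, 25 of the 185 called genes lay within 100 kb of another called gene, in 14 pairs. The same share was not computed over all genes tested, so the count cannot tell whether called genes lie closer together than others. Both members fell in 7 pairs, both rose in 4 and they moved in opposite directions in 3. The pairs that fell were among Cd3d, Cd3e and Cd3g, Ceacam10 with Cd177, Saa1 with Saa3, H2-DMa with H2-DMb1, and Ccr9 with the chemokine receptor gene Cxcr6. Mt1 with Mt2 and Cyp3a11 with Cyp3a25 were among the pairs that rose. So was 4930581F22Rik with LOC115487216, whose annotated spans overlap, so they may share reads. Pdzk1 and Cd160, a receptor gene of intraepithelial lymphocytes, lie 105 bases apart on chromosome 3 and moved in opposite directions, Cd160 by -0.68 (SE 0.10, adjusted p = 0.00728). These pairs were chosen after their values were seen.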

How the data were processed

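RNA sequencing of ileum tissue was used from 5 WT, 5 DHO and 5 HO libraries. Per the submitters' processing notes the authors used fastp, HISAT2, HTSeq and the mm10 genome, without versions, settings or annotation. The deposited values were taken as FPKM, counts the authors had scaled to length and depth, although the file names no unit, since for all 24836 genes above 0 (of 25329) they were whole reads, within 0.02 of a read, multiplied by a factor of length and depth. Reads carry no molecular identifiers, so read totals bear on counting error alone.

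The filter kept genes that reached 1 FPKM in 5 or more of the 10 WT and DHO libraries, and log2(FPKM + 1) was fitted with limma-trend and robust eBayes (limma 3.58.1, R 4.3.3) on these 10 libraries alone. The pseudocount of 1 draws changes of low genes toward 0. Tests were two-sided, with Benjamini-Hochberg adjustment over all 10874 genes. DHO against HO came from 1 fit of all 15 libraries over the same genes. The labels give no pairing, so none was used. The workflow was tested on simulated data.

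The members, the 55 gene lists and the naming rule were chosen with earlier results of these data known. The rule took 10 RIPK1 pathway genes (Tnf did not pass the filter), the 10 largest rises and 10 largest falls among calls whose groups did not overlap, from a mean of 1 FPKM upward, up to 6 each way in the fit without DHO 3 and DHO 4, and up to 3 called members of each list by p. Alternatives were other pseudocounts (0.1, 0.5), filters (none, at least 5 FPKM) and a threshold of 0.01, quantile normalization, median-of-ratios scaling, limma-voom on the recovered reads, array weights, a smooth muscle covariate, and leaving out libraries. Averaging close pairs of libraries was added after seeing the data. Gene positions and promoters are from RefSeq on GRCm38.p6, matched by symbol for 10858 of the genes tested and all 185 called.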

Additional observations from a re-analysis of the deposited data

Results flagged for a closer look

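In each case below the library farthest from the other 4 of its group lay so far out that its gap to the nearest of them, as a share of the group's range, passed Dixon's critical value of 0.71 for 5 libraries. Of 184 groups of 5 examined, for 92 named genes in WT and in DHO, 13 passed, and chance flags about 1 in 20 groups.

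Ms4a1 in DHO 1 was at 7.04 FPKM, above the 0.0688 to 0.193 of the other 4 (share 0.946). Cd79a in DHO 1 was at 27.5 FPKM, above the 1.34 to 3.04 of the other 4 (share 0.781). Cyp4f16 in DHO 1 was at 191 FPKM, above the 137 to 149.6 of the other 4 (share 0.74). Reg3g in DHO 1 was at 3497 FPKM, below the 7516 to 10082 of the other 4 (share 0.723). Dmbt1 in DHO 1 was at 72.6 FPKM, below the 154 to 162 of the other 4 (share 0.9402).

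Cd3e in DHO 2 was at 1.44 FPKM, below the 1.74 to 1.82 of the other 4 (share 0.801). Mme in DHO 2 was at 23.3 FPKM, below the 34.4 to 37.8 of the other 4 (share 0.805).

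Ccl28 in WT 4 was at 12.3 FPKM, below the 16.3 to 17.8 of the other 4 (share 0.763). Cbr1 in WT 4 was at 57.5 FPKM, above the 47.4 to 48.9 of the other 4 (share 0.8397).

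H2-DMa in DHO 5 was at 2.29 FPKM, below the 3.03 to 3.37 of the other 4 (share 0.719). Treh in WT 1 was at 29.6 FPKM, below the 37.8 to 39.5 of the other 4 (share 0.855). Ceacam10 in WT 2 was at 7.96 FPKM, above the 5.02 to 5.68 of the other 4 (share 0.74). Ccr9 in WT 5 was at 1.16 FPKM, below the 1.52 to 1.67 of the other 4 (share 0.739).

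Of these genes, Ceacam10, Ccl28, H2-DMa, Treh, Cd3e, Mme and Cyp4f16 were called in each fit that left out 1 library, the outlying one included. Dmbt1, Mme, Cyp4f16, Reg3g, Ccr9, Ms4a1 and Cd79a were chosen after their values were seen. Cbr1, a carbonyl reductase gene, rose in DHO (log2 change 0.57, SE 0.10, adjusted p = 0.0208) and lost its call without WT 1, WT 2, WT 3, WT 5 or DHO 4 (adjusted p = 0.0529 to 0.0666), none of which is WT 4. Dmbt1, a mucosal scavenger receptor gene, was called lower (log2 change -1.13, SE 0.23, adjusted p = 0.0361) and lost its call without WT 1, WT 2, WT 3, WT 5, DHO 3 or DHO 4 (adjusted p = 0.0677 to 0.109).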

How the results depend on the processing

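No paired analysis was possible because the labels pair no samples, and the numbers used here were given in accession order.

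The number of genes called between DHO and WT, 185 (93 higher and 92 lower), stayed within 1.5 times under both smaller pseudocounts (178 and 181), quantile normalization (207), median-of-ratios scaling (148), limma-voom (173), a smooth muscle covariate (186) and leaving out DHO 3 and DHO 4 (186). It became 91 with no filter on low values (43 higher and 48 lower), 52 at an adjusted p under 0.01 (23 and 29) and 330 with array weights (183 and 147). At a minimum of 5 FPKM the total was 125, with 48 lower. It became 19 without WT 1 and WT 2 (6 and 13), 31 with the HO libraries in the fit (9 and 22), and 3 without DHO 1, DHO 3, DHO 4, WT 1 and WT 2 (1 and 2). These 3 were Cda, Ceacam10 and Pigr, in a fit with fewer samples. Averaging DHO 3 with DHO 4 gave 98 (44 and 54), and averaging all 3 close pairs gave 11 (1 and 10), each with fewer samples. The 11 were Mt2, which rose, and Abcc3, Ccl28, Cd177, Cd3e, Cd3g, Ceacam10, Gzmb, H2-Eb1, Itgae and Pigr, which fell. Leaving out 1 library gave 61 to 221 calls, 29 to 120 higher and 32 to 114 lower.

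Between DHO and HO, 6120 genes were called, 4030 at a minimum of 5 FPKM, where fewer genes were tested, 4042 without the same 5 libraries, and 5631 to 6523 without 1 library. For settings whose construction does not show it, the cause of a change in count was not tested. Of 66 genes taken by the naming rule or chosen later and called between DHO and WT, 58 were also called with quantile normalization, 55 with limma-voom and 47 with median-of-ratios scaling. The 19 lost with that scaling were Apob, Bax, Casp4, Cbr1, Ccl5, Cd74, Dmbt1, Elovl1, Gclc, H2-DMb1, Hsd17b7, Nlrc5, Plet1, Rdh7, Saa3, Sdf2l1, Slc30a1, Slc5a11 and Tnfaip3. No called change was reversed under any of these settings. Depth differed little between libraries, and the smallest change called with 5 libraries per group was 0.27 on the log2 scale.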

Other observations

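Among the 58 genes called in each fit without 1 library, several belong to none of the groups above and were chosen after their values were seen. On the side of the falls, Selplg, the leukocyte ligand for P-selectin, went from 4.28 ± 0.537 FPKM in WT to 2.17 ± 0.2504 in DHO (mean ± SD, n = 5; log2 change -0.73, SE 0.09, adjusted p = 0.00364). Cyba, a subunit of the superoxide-producing oxidases, fell by 0.57 on the log2 scale (adjusted p = 0.00471) and Ccl22, a chemokine of dendritic cells and macrophages, by 0.63 (adjusted p = 0.00929). The transcription factor gene Tfcp2l1 went from 19.4 ± 2.45 to 8.05 ± 2.88 FPKM (change -1.23, SE 0.20, adjusted p = 0.0143), and Itga6, the integrin chain that anchors epithelium to its basement membrane, from 58.7 ± 4.01 to 42.9 ± 3.03 (change -0.45, SE 0.07, adjusted p = 0.01). Gfpt1, the entry enzyme of hexosamine synthesis, fell by 0.45 (adjusted p = 0.00728).

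On the side of the rises, Fmo5, a flavin-containing monooxygenase gene, went from 13.99 ± 2.86 FPKM in WT to 24.2 ± 0.853 in DHO (log2 change 0.77, SE 0.11, adjusted p = 0.00873). Aqp7, a channel for water and glycerol, rose by 0.99 (adjusted p = 0.00277), Acsf2, an acyl-CoA synthetase gene, by 0.86 (0.00929) and Vwa1, a matrix protein gene, by 1.07 (0.00471). Without WT 1 and WT 2 the adjusted p was 0.0474 for Selplg, 0.129 for Tfcp2l1, 0.149 for Itga6, 0.0744 for Fmo5 and 0.0564 for Aqp7.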
